A study of Homo sapiens with 6 samples.

Results

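HPRT1, PRPS1, TPMT, NT5C2, MSH3, MSH6 and PMS2 encode enzymes that form or remove the active products of thiopurine drugs and proteins of DNA mismatch repair. They were chosen by gene symbol, and all 7 were found among the 18216 genes of the expression table. They were measured in REH cells, an established human line of B-cell precursor leukemia, that received for 24 h either 200 nM SNS-032 or the solvent DMSO alone. SNS-032 blocks CDK9, the kinase that releases RNA polymerase II into productive elongation, and also other cyclin-dependent kinases. Each group held 3 RNA-seq libraries, 6 in all, and no other treatment or genotype differed between the groups according to the labels. The labels do not say whether the libraries of a group came from separate cultures, so p-values measure only the spread between these libraries, which may be technical.

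Mercaptopurine and thioguanine are purine analogs used in the maintenance treatment of acute lymphoblastic leukemia. HPRT1 couples them to phosphoribosyl pyrophosphate (PRPP), which PRPS1 makes, and later steps turn the product into thioguanine nucleotides that enter DNA. TPMT inactivates the drugs by methylation, and NT5C2 removes the phosphate from the nucleotides. Mismatch repair reads the damaged base pairs after replication: MSH6 and MSH3 are alternative subunits of the MutS dimers that find mismatches, and PMS2 is the endonuclease subunit of a MutL dimer that cuts the strand to be repaired.

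The values are FPKM, fragments scaled by transcript length and by the mapped fragments of the library, so levels of different genes may be set beside each other. The depth of the libraries is unknown, because the values are not counts and were rounded to 2 decimals. The sum over all genes ran from 457826.4 to 464307.5 FPKM in the DMSO libraries and from 470094.5 to 491886.5 FPKM in the SNS-032 libraries. As these are relative values of bulk RNA, fewer cells of a type and less RNA per cell cannot be told apart in them. Higher, lower and unchanged therefore mean relative to the other RNA of the library. The amount of RNA per cell was not measured, and a gene with higher FPKM need not have more RNA per cell. Of 13 measured markers of B-cell precursors, 12 reached a mean of 1 FPKM in both groups, while MME, which encodes CD10, stayed below 1 FPKM in every library. The summed level of these markers was 1887 to 2045 FPKM with DMSO and 1183 to 1323 FPKM with SNS-032. The summed markers of other cells were lower than these in all libraries, and higher with SNS-032 than with DMSO without overlap. Each sum rested on a few genes. For 6 T-cell markers the sum was 0.4 to 0.52 FPKM with DMSO and 2.63 to 4.86 FPKM with SNS-032, mainly CD3G, with CD3E listed at 0 in each DMSO library. For 7 myeloid markers it was 9.03 to 9.38 and 19.54 to 22.45 FPKM, with ELANE listed at 0 in each DMSO library. LYZ, a lysozyme gene, made most of the myeloid rise, at 3.15 ± 0.163 and 16.7 ± 0.991 FPKM, while CSF1R, a myeloid receptor gene, fell from 4.89 ± 0.283 to 1.05 ± 0.0306 FPKM (SD, n = 3 each). For 6 erythroid and megakaryocyte markers it was 2.24 to 2.48 and 7.09 to 7.85 FPKM, nearly all of it ITGA2B, with KLF1 and PF4 listed at 0 in each DMSO library. For 7 markers of cells outside the blood it was 2.55 to 3.07 and 7.19 to 7.75 FPKM, with KRT5 listed at 0 in each DMSO library. The genes listed at 0 with DMSO were at 0.2 FPKM or less in each SNS-032 library. The erythroid marker GATA1 and the T-cell marker CD3D, at up to 0.09 FPKM with DMSO, were listed at 0 in each SNS-032 library. The part of the markers of other cells in the results was not tested.

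With SNS-032, HPRT1, PRPS1 and the MutS subunits MSH6 and MSH3 were lower relative to the other RNA. On the same relative scale TPMT and PMS2 were higher, and NT5C2 stayed near its level with DMSO. SNS-032 was compared with DMSO by limma on log2(FPKM + 1) over 12239 genes whose mean reached 1 FPKM with DMSO or with SNS-032, and an adjusted p under 0.05 was called. All 7 genes were above this limit in both groups. HPRT1, PRPS1, MSH3 and MSH6 were called lower, 4 of 7, and TPMT and PMS2 were called higher, 2 of 7. Among all genes tested, 49.3% were called lower and 39.9% higher, 89.2% in either direction, so that a call by itself sets no gene apart. These shares, the median and the percentiles include genes that reached the limit in only 1 group, whose direction the filter largely sets. More genes reached 1 FPKM in a library with SNS-032 (11837 to 11928) than with DMSO (10765 to 10785). The libraries of the groups did not overlap for any of the 7 genes, as was the case for 89.7% of all genes tested. Across all genes tested the log2 fold change had a median of −0.14. It was 0.02 when each library was divided by its median ratio to the mean library, and on that scale the log2 fold changes of the 7 genes were 0.15 to 0.17 higher.

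**Figure D1:**
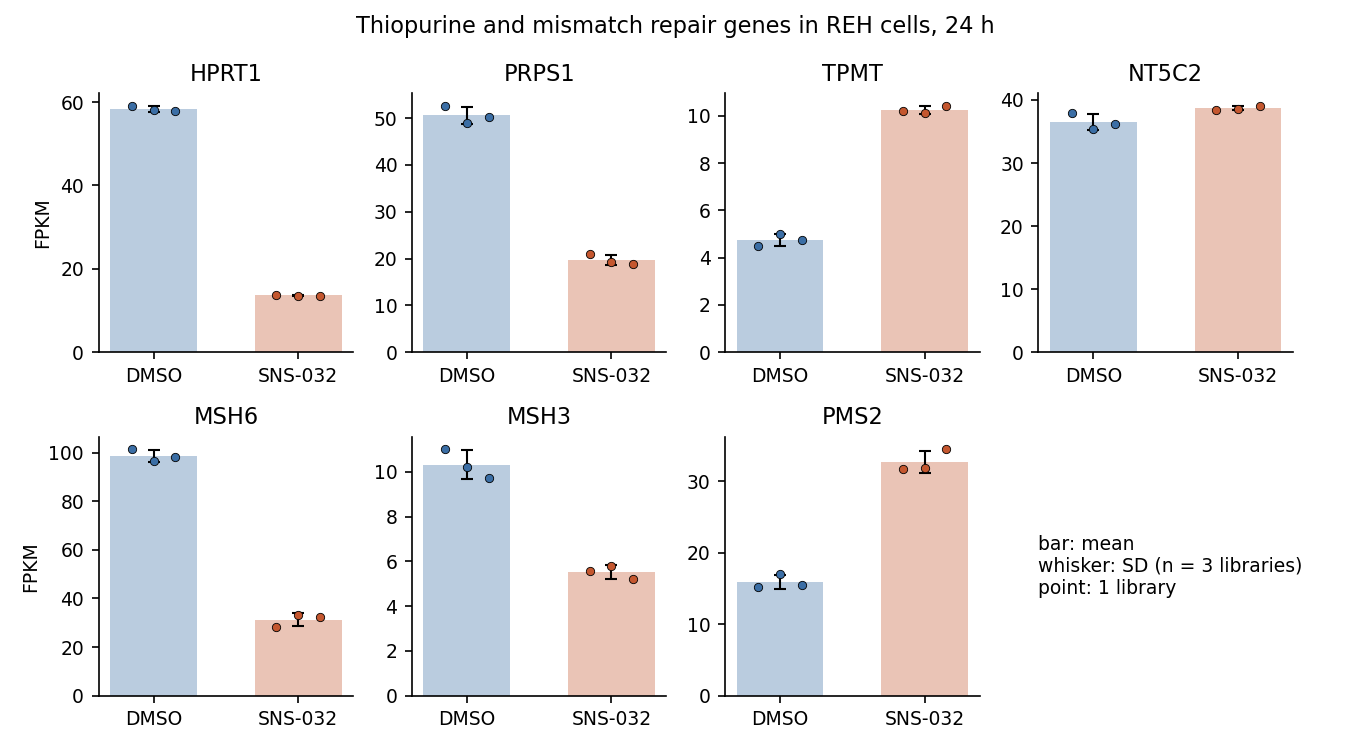
FPKM of each of the 7 genes in the DMSO and the SNS-032 libraries, with the bar at the mean, the whisker at the SD (n = 3 libraries) and a point for each library. The points of HPRT1, PRPS1, MSH6 and MSH3 lie lower with SNS-032, those of TPMT and PMS2 lie higher, and those of NT5C2 lie between 35.45 and 39.07 FPKM throughout.

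HPRT1 (Entrez gene 3251), the enzyme that converts thiopurines to nucleotides, was at 59.09, 58.2 and 57.75 FPKM in the DMSO libraries and at 13.71, 13.58 and 13.59 FPKM in the SNS-032 libraries. The SNS-032 libraries lay close together, far below each DMSO library. The mean was 58.3 ± 0.682 FPKM with DMSO and 4.28-fold lower, 13.6 ± 0.0723 FPKM, with SNS-032 (SD, n = 3 each). The log2 fold change was −2.02 (standard error 0.045, adjusted p = 2.78e-12 from limma), at percentile 2.29 of all genes tested. PRPS1 (Entrez gene 5631), which makes the PRPP that HPRT1 consumes, was at 52.63, 48.98 and 50.23 FPKM with DMSO and at 20.95, 19.37 and 18.79 FPKM with SNS-032. The groups did not overlap, and DMSO replicate 1 and SNS-032 replicate 1 were the highest of their groups. The log2 fold change of PRPS1 was −1.32 (standard error 0.054, adjusted p = 3.3e-10 from limma), a 2.57-fold fall of the mean. Its paralog PRPS2, which catalyzes the same reaction, was 3.24-fold lower, with 31.5 ± 1.13 FPKM in DMSO and 9.71 ± 0.468 FPKM in SNS-032 libraries (SD, n = 3 each). HPRT1 and PRPS1 both lie on the X chromosome, at chrX:134460153-134500668 and chrX:107628428-107651026 of GRCh38 on the plus strand. HPRT1 has 3 named pseudogenes in the GENCODE v29 annotation and PRPS1 has 2, and reads that match these copies equally well may have been assigned to either.

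TPMT (Entrez gene 7172), the thiopurine methyltransferase, was at 4.49, 5.02 and 4.73 FPKM with DMSO and at 10.2, 10.11 and 10.43 FPKM with SNS-032. It was the least abundant of the 7 genes with DMSO, and each SNS-032 library was above each DMSO library. The mean was 2.16-fold higher, with a log2 fold change of 0.97 (standard error 0.063, adjusted p = 2.08e-08 from limma), at percentile 82.7 of all genes tested. TPMT lies at chr6:18128311-18155074 on the minus strand and has 4 named pseudogenes in the annotation. NT5C2 (Entrez gene 22978), the cytosolic nucleotidase that removes the phosphate from purine monophosphates and that is mutated in some relapsed leukemias, was at 37.91, 35.45 and 36.26 FPKM with DMSO and at 38.45, 38.58 and 39.07 FPKM with SNS-032. The libraries of the groups did not overlap, but the gap between the highest DMSO and the lowest SNS-032 library was smaller than the spread among the DMSO libraries. The log2 fold change of NT5C2 was 0.08 with a 95% interval from −0.02 to 0.18 (adjusted p = 0.112 from limma). With each library divided by its median ratio it was 0.25 and passed the test (adjusted p = 0.000282 from limma), while over the other alternatives the adjusted p was 0.076 to 0.565. NT5C2 lies at chr10:103088018-103193306 on the minus strand. It overlaps the gene CNNM2 on the opposite strand, with 1891 exonic bases in common. CNNM2, a gene of the cyclin M family of metal transporters, was at 1.14 ± 0.0961 and 1.64 ± 0.116 FPKM (SD, n = 3 each), and whether the reads were counted by strand is not given in the sources used here.

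MSH6 (Entrez gene 2956), the MutS subunit for base mispairs and short loops, was the most abundant of the 7 genes with DMSO, at 101.36, 96.64 and 98.18 FPKM. With SNS-032 it was at 28.29, 33.03 and 32.49 FPKM, so that SNS-032 replicate 1 was the lowest library. The means were 98.7 ± 2.41 and 31.3 ± 2.59 FPKM (SD, n = 3 each), a 3.16-fold fall with a log2 fold change of −1.63 (standard error 0.058, adjusted p = 1.03e-10 from limma). MSH3 (Entrez gene 4437), the MutS subunit for longer insertion and deletion loops, was at 11, 10.21 and 9.74 FPKM with DMSO and at 5.57, 5.79 and 5.19 FPKM with SNS-032. Each SNS-032 library was below each DMSO library, and the mean was 1.87-fold lower. The log2 fold change was −0.80 (standard error 0.068, adjusted p = 2.66e-07 from limma), at percentile 26.4 of all genes tested against 5.78 for MSH6. PMS2 (Entrez gene 5395), the MutL endonuclease subunit, moved the other way, from 15.23, 17.03 and 15.43 FPKM with DMSO to 31.79, 31.9 and 34.49 FPKM with SNS-032. The groups did not overlap, and the mean was 2.06-fold higher (log2 fold change 1.00, standard error 0.059, adjusted p = 7.95e-09 from limma). PMS2 is uncertain as a single-gene value, because the annotation holds 11 pseudogenes named after it, PMS2CL and others, with which it may share reads. The share of the PMS2 value that comes from such copies was not tested. MSH6 lies at chr2:47783082-47810101 on the plus strand, MSH3 at chr5:80654648-80876460 on the plus strand and PMS2 at chr7:5973239-6009125 on the minus strand. MSH6 shares 1785 exonic bases with FBXO11, a ubiquitin ligase gene on the opposite strand, which rose from 28.4 ± 0.306 to 36 ± 0.861 FPKM (SD, n = 3 each; adjusted p = 2.19e-05 from limma).

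**Figure D2:**
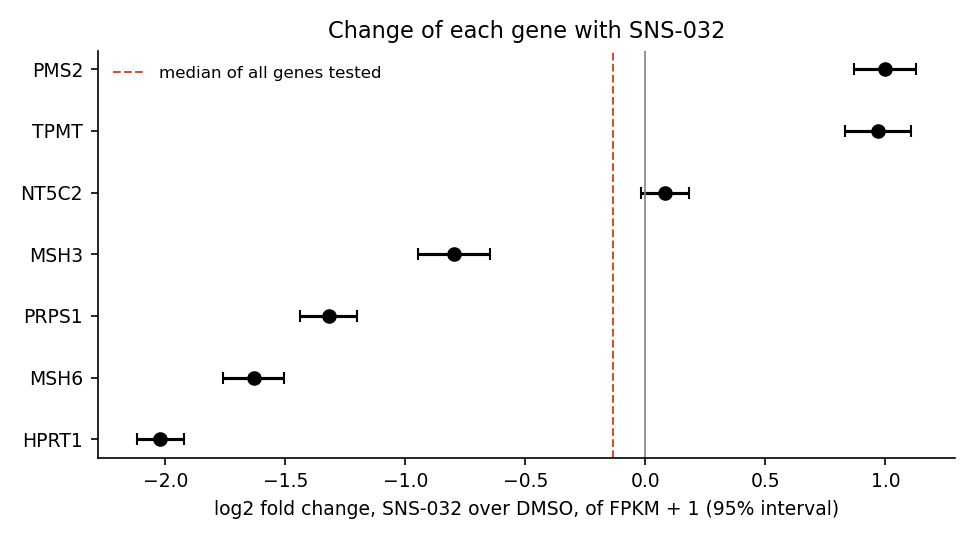
Log2 fold change of FPKM + 1 (horizontal axis, SNS-032 over DMSO) of the 7 genes, with 95% intervals from limma and a dashed line at the median of all genes tested, −0.14. HPRT1 is lowest at −2.02 and PMS2 highest at 1.00, and only the interval of NT5C2 crosses 0.

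The order of the 7 levels differed between the treatments. With DMSO it was MSH6, HPRT1, PRPS1, NT5C2, PMS2, MSH3 and TPMT from high to low, and the libraries of no neighbors in this order overlapped. With SNS-032 it was NT5C2, PMS2, MSH6, PRPS1, HPRT1, TPMT and MSH3. There PMS2 and MSH6 overlapped, at 31.79 to 34.49 and 28.29 to 33.03 FPKM, and the other neighbors did not. The genes therefore lay closer together, between 4.75 and 98.7 FPKM on average with DMSO and between 5.52 and 38.7 FPKM with SNS-032.

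Ratios of 2 genes within a library were compared to set opposing roles side by side, and 6 ratios were tested. HPRT1 exceeded TPMT 13.16-, 11.59- and 12.21-fold in the DMSO libraries and 1.344-, 1.343- and 1.303-fold in the SNS-032 libraries. The balance of the activating over the methylating enzyme at the RNA level was thus near 12.3 with DMSO and near 1.33 with SNS-032. HPRT1 was at 1.6 ± 0.0418 times the level of NT5C2 with DMSO and at 0.352 ± 0.00437 times with SNS-032 (SD, n = 3 each), so that the order of both genes turned. PRPS1 was at 0.867 ± 0.0246 times the level of HPRT1 with DMSO and at 1.45 ± 0.0746 times with SNS-032 (SD, n = 3 each). PRPS1 over PRPS2 was 1.61 ± 0.0105 and 2.03 ± 0.127 (SD, n = 3 each), the smallest shift of the 6. In mismatch repair, MSH6 was at 9.59 ± 0.445 times the level of MSH3 with DMSO and at 5.68 ± 0.591 times with SNS-032 (SD, n = 3 each). PMS2 was at 0.161 ± 0.0134 times the level of MSH6 with DMSO and at 1.05 ± 0.0796 times with SNS-032 (SD, n = 3 each). On log2(FPKM + 1), the ratios changed by −2.99 for HPRT1/TPMT, −2.10 for HPRT1/NT5C2, 0.28 for PRPS1/PRPS2, 0.70 for PRPS1/HPRT1, −0.83 for MSH6/MSH3 and 2.63 for PMS2/MSH6. Each of the 6 had p = 0.1 in an exact two-sided permutation test, also after Benjamini-Hochberg adjustment. This is the smallest p that 3 libraries against 3 allow, so the test could not pass 0.05.

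**Figure D3:**
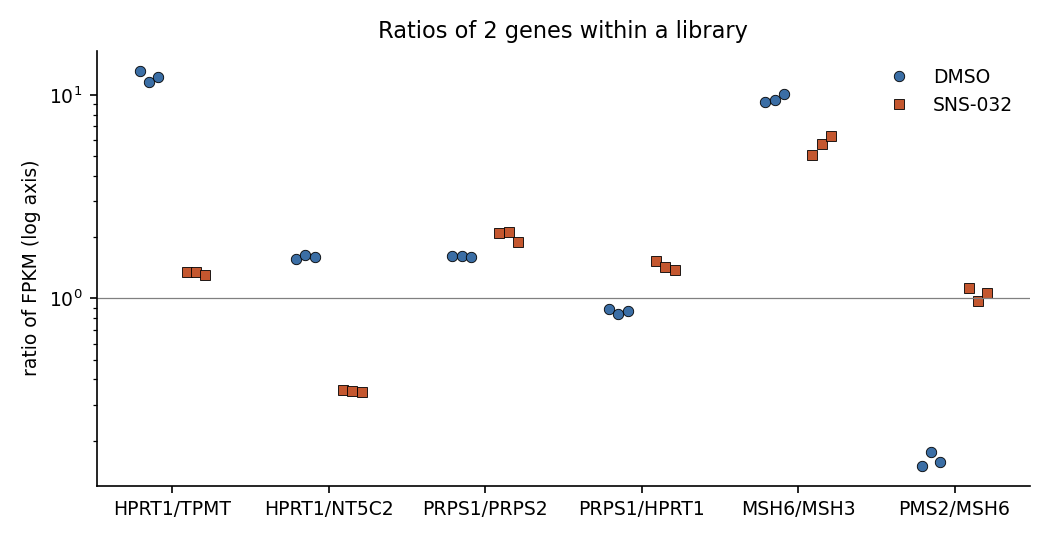
Ratio of the FPKM of 2 genes (vertical log axis) in each DMSO library (circles) and each SNS-032 library (squares), for the 6 ratios. The circles and squares of each ratio are apart, most for HPRT1/TPMT and PMS2/MSH6, and least for PRPS1/PRPS2.

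TPMT and PMS2 each lie head to head with a gene that fell, as 49.3% of all genes tested did. In GENCODE v29, the start of TPMT lies 370 bases from that of KDM1B, a histone demethylase gene on the opposite strand, and the start of PMS2 lies 120 bases from that of AIMP2, which encodes a scaffold of the aminoacyl-tRNA synthetase complex. KDM1B was at 12.4, 12.77 and 11.2 FPKM with DMSO and at 5.82, 4.89 and 5.32 FPKM with SNS-032. Its log2 fold change was −1.05 (standard error 0.075, adjusted p = 4.58e-08 from limma), against 0.97 for TPMT. AIMP2 was at 30.8, 31.21 and 33.72 FPKM with DMSO and at 20.95, 21.64 and 20.18 FPKM with SNS-032. Its log2 fold change was −0.59 (standard error 0.054, adjusted p = 4.93e-07 from limma), against 1.00 for PMS2. Within each pair the libraries of the groups did not overlap for either gene, and the directions were opposite.

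The promoters of TPMT and PMS2 are shown because each lies beside the start of a gene that moved the other way. The sequences are from RefSeq on GRCh38.p14, 250 bases before to 50 after the start, on the strand of the gene. Capitals mark GGGCGG (the GC box), TTTGGCGC and TTTCCCGC (E2F sites), read on both strands, where neighboring matches may share bases.
TPMT, chr6:18155028-18155327, minus strand: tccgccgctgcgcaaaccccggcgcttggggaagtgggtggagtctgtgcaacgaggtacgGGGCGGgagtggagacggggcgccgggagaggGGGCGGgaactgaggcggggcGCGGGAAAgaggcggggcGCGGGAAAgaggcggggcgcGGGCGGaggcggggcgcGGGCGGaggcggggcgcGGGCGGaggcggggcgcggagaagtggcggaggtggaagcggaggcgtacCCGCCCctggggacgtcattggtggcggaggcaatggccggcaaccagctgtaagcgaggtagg
PMS2, chr7:6009057-6009356, minus strand: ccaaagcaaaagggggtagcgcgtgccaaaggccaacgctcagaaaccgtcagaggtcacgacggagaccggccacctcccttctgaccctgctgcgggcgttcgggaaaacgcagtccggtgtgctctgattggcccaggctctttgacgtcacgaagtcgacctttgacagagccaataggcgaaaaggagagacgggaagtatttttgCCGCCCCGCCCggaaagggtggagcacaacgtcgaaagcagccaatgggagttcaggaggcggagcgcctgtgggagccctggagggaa
The TPMT promoter held 6 GC boxes and 2 TTTCCCGC sites, and that of PMS2 held 2 GC boxes. All 7 genes had at least 2 GC boxes. At least 1 occurs in 44.6% of 27305 promoters of this length, the first listed for each gene, and the share with 2 or more was not counted. TTTCCCGC, found in 1.66% of promoters, was present for TPMT and MSH6, and TTTGGCGC, found in 0.659%, for MSH3. CACGTG, the E-box that MYC binds, is in 7.43% of promoters and in none of these 7 windows. These are matches of letters and not binding sites. GGGCGG was held by genes that rose and by genes that fell. TTTCCCGC was held by TPMT, which rose, and MSH6, which fell, and TTTGGCGC only by MSH3, which fell. Whether a motif goes with a direction of change was not tested.

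**Figure D4:**
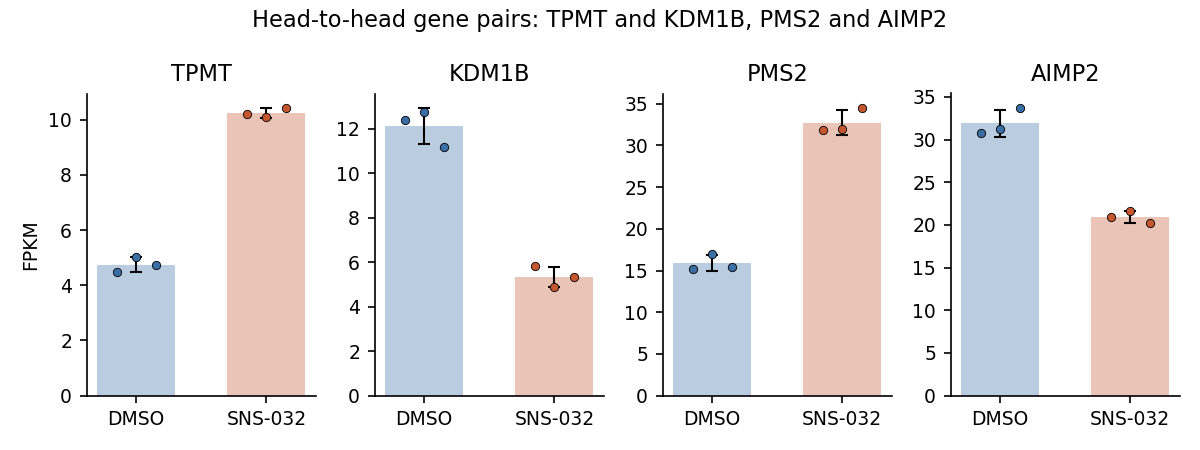
FPKM of TPMT, KDM1B, PMS2 and AIMP2 by treatment, with the bar at the mean, the whisker at the SD (n = 3 libraries) and a point for each library. TPMT and PMS2 are higher with SNS-032 while their neighbors KDM1B and AIMP2 are lower.

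The 7 genes were then set among 10 lists of genes that act in the same steps. Of 66 genes tested in these lists, 54 were lower and 7 higher, against 49.3% lower and 39.9% higher among all genes tested, which is also the background of each list. That background includes genes tested only through their level with SNS-032, which can hardly be lower, so the contrast may be overstated. Their log2 fold changes had a median of −0.98, beside −0.14 over all genes tested. Without the 7 genes themselves, 50 of 59 were lower and 5 higher. All 4 genes tested for PRPP supply were lower, with PRPSAP1, which binds and restrains the synthetase, at −1.83, PRPS2 at −1.60, PRPS1 at −1.32 and PRPSAP2 at −1.11 on the log2 scale. Of 7 genes of purine salvage, 6 were lower. PNP, the purine nucleoside phosphorylase, fell from 36.3 ± 0.171 to 10.1 ± 0.256 FPKM and ADK, adenosine kinase, from 46.7 ± 0.8 to 18.2 ± 1.96 FPKM (SD, n = 3 each). DGUOK, the mitochondrial deoxyguanosine kinase, was the 1 gene of this list that rose, to 60.3 ± 2.37 from 51 ± 2 FPKM (SD, n = 3 each; limma adjusted p = 0.000549).

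Among 11 genes that turn thio-IMP into thioguanine nucleotides and their deoxy forms, 7 were lower and 3 higher. GMPS, which makes the guanine nucleotide, fell from 66.3 ± 1.29 to 8.15 ± 0.563 FPKM (SD, n = 3 each), and RRM2, a subunit of ribonucleotide reductase, from 127 ± 1.09 to 27.4 ± 1.4 FPKM (SD, n = 3 each). NME1, a nucleoside diphosphate kinase, had a log2 fold change of −2.88, and its neighbor and paralog NME2 one of 0.09, which did not pass the test, and reads shared by these copies make both uncertain. GUK1, the guanylate kinase that adds the next phosphate, rose from 43.6 ± 1.25 to 84.8 ± 7.5 FPKM (SD, n = 3 each). NME3, another diphosphate kinase, and RRM2B, the reductase subunit induced by p53, rose by 0.93 and 0.64 on the log2 scale.

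The list of thiopurine inactivation held 7 genes, not all of which act on the drugs themselves, and 3 reached the limit of 1 FPKM. TPMT was the 1 gene of them that rose, while ITPA, which hydrolyzes thio-ITP, and NUDT1, which hydrolyzes oxidized purine nucleotides, were lower by log2 fold changes of −1.21 and −0.94. XDH, the xanthine oxidase gene, AOX1, MOCOS and GDA stayed below 1 FPKM and were not tested, with XDH at 0.05 ± 0.0346 and 0.133 ± 0.0404 FPKM (SD, n = 3 each). Methylation by TPMT uses S-adenosylmethionine, and 4 of 5 genes of its supply and recycling were lower. MAT2B, the regulatory subunit of its synthetase, had a log2 fold change of −1.72, AHCY, which clears the product of the methylation, one of −1.26, and the related AHCYL1 one of −0.66. MAT2A, the catalytic subunit, fell less, from 211 ± 2.67 to 169 ± 6.47 FPKM (SD, n = 3 each), a log2 fold change of −0.32. AHCYL2, at 0.09, did not pass. NT5C2 was the 1 of 5 tested nucleotidases that was not called. NT5C3B, NT5C, NT5C3A and NT5M were lower, with log2 fold changes of −1.54, −1.03, −1.02 and −0.52. Of 5 transport genes, 4 were lower, led by SLC29A1, the equilibrative nucleoside transporter ENT1, which fell from 69.8 ± 2.99 to 14 ± 0.307 FPKM (SD, n = 3 each). ABCC4, the exporter of nucleotide analogs, fell from 6.28 ± 0.536 to 1.77 ± 0.362 FPKM (SD, n = 3 each). SLC29A2 and ABCC5 were lower by smaller log2 fold changes of −0.35 and −0.28, and SLC28A2, a concentrative nucleoside transporter, rose from 0.19 ± 0.0361 to 3.14 ± 0.585 FPKM (SD, n = 3 each). SLC28A2 passed the limit of 1 FPKM only through its level with SNS-032, so its place among the genes called higher is no support for the list.

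In mismatch recognition, PMS2 was the 1 of 5 genes that rose, and the other 4 were lower. PMS1, a MutL homolog of unclear role in repair, went from 18.4 ± 0.461 to 11.5 ± 0.912 FPKM and MLH3, the MutL subunit best known from meiosis, from 6.54 ± 0.566 to 5.53 ± 0.272 FPKM (SD, n = 3 each). The call of MLH3 (log2 fold change −0.21, limma adjusted p = 0.0199) was lost without DMSO replicate 1 (adjusted p = 0.0986), DMSO replicate 2 (0.0545) or SNS-032 replicate 1 (0.0551), and on the median-ratio scale (0.464). That scale also ended the call of ABCC5, and it made NME2, AHCYL2, POLD1 and LIG1 pass as higher. Of 16 genes of excision and resynthesis, 14 were lower and none rose. EXO1, the exonuclease that removes the mispaired strand, fell from 17.3 ± 0.595 to 3.12 ± 0.274 FPKM (SD, n = 3 each). POLD3, a subunit of DNA polymerase delta, and RPA2, a subunit of the single-strand binding protein RPA, were lower by log2 fold changes of −1.97 and −1.93. POLD1, the catalytic subunit of that polymerase, and LIG1, the ligase that seals the nick, did not pass. POLD1 was at 40.8 ± 2.1 and 40.7 ± 2.73 FPKM in the DMSO and SNS-032 libraries, and LIG1 at 49.1 ± 1.23 and 47.7 ± 2.02 FPKM (SD, n = 3 each). All 5 genes of the checkpoint that answers to mismatch repair were lower, among them CLSPN, TOPBP1 and ATRIP with log2 fold changes of −0.95, −0.82 and −0.73. The paper reported fewer cells positive for EdU, a stain for proliferation, in its leukemia lines after SNS-032. The part of this in the falls of the lists was not tested.

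**Figure D5:**
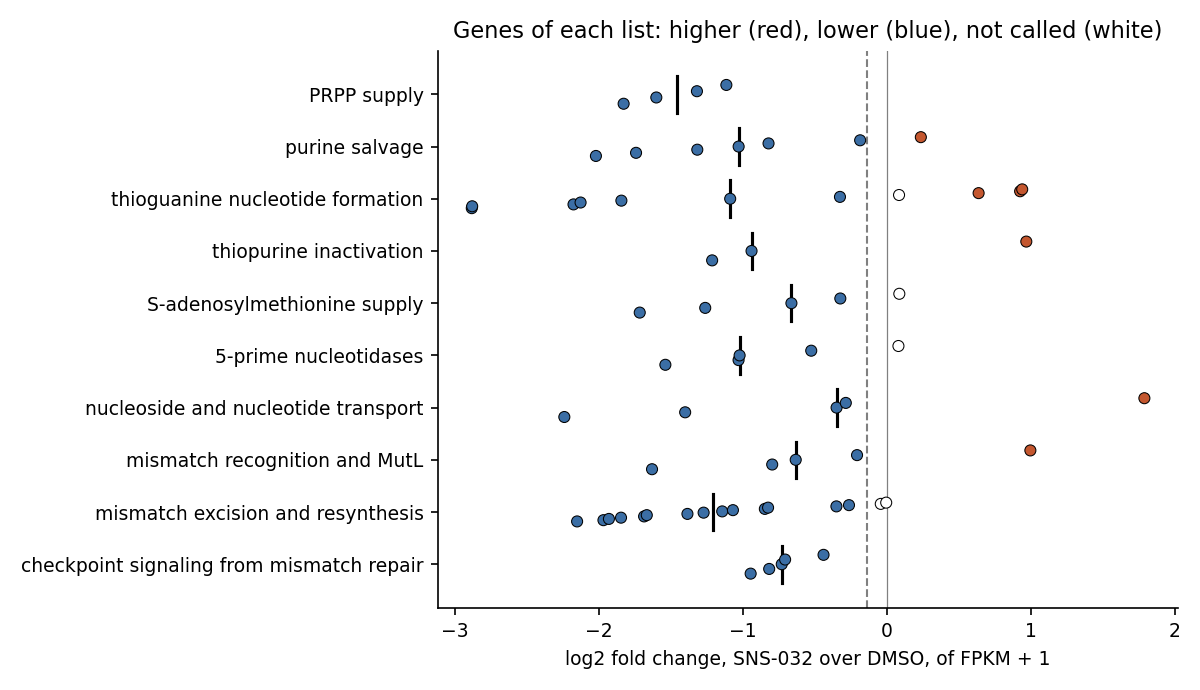
Log2 fold change of FPKM + 1 (horizontal axis) of each tested gene in 10 lists, colored by its call, with a black bar at the median of the list and a dashed line at the median of all genes tested, −0.14. Most points lie left of the dashed line, and 7 genes were called higher.

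The gene of these lists whose values, centered on their mean, lay closest to those of a member over the 6 libraries was sought by Euclidean distance among 65 genes. TPMT and PMS2 were closest to each other, at a distance of 0.0855. NT5C2 was closest to AHCYL2 (0.0637), HPRT1 to IMPDH2, which makes xanthosine monophosphate (0.144), PRPS1 to RFC3 (0.126), MSH6 to RFC4 (0.146) and MSH3 to RFC5 (0.188), the last 3 being subunits of the clamp loader RFC. With 2 groups of libraries this measure reflects mostly the size of the change.

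The 7 genes range widely in length, from 22599 bases of PRPS1 to 221813 of MSH3, taken from the principal transcript. Genes tested were put in 5 classes of equal number by this span. The median log2 fold change was −0.14 in the shortest class, up to 8539 bases, and −0.25 in the longest, from 74914 bases, and 49% and 53.2% of the genes in these classes were lower. NT5C2 and MSH3, both in the longest class, had log2 fold changes of 0.08 and −0.80. PRPS1, TPMT and MSH6 shared the middle class, with 22599, 26764 and 27020 bases, and differed from −1.63 to 0.97.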

How the data were processed

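The FPKM were made by the authors with RSEM, from HISAT and Bowtie2 alignments. HISAT2 2.0.4 and GRCh38.p12 are named in the submitters' processing notes. The deposited FPKM have 2 decimals. The authors' log2 fold change and the p-value and q-value beside it were not used. FPKM carry no counts, so depth and counting error are unknown.

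The test ran on log2(FPKM + 1) with no rescaling. Genes reaching a mean of 1 FPKM with DMSO or SNS-032 were tested with limma 3.58.1 in R 4.3.3 (trended prior variance, robust estimation, Benjamini-Hochberg over all genes tested). Fold changes are SNS-032 over DMSO and understate the change of low genes. Ratios were tested with scipy 1.17.1. Gene models came from GENCODE v29 (GRCh38.p12): for each gene the principal transcript by APPRIS, the longest where several tie. Entrez identifiers matched for 11935 of the genes tested. For each of the 7 genes the RefSeq promoter nearest to that start was taken.

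The 7 genes, the lists, the ratios and the rule for named genes were chosen with earlier results of these data known. The rule took the 7 genes, the partners in ratios, divergent neighbors, the closest genes and, per list, up to 3 rises and 3 falls with at least 5 FPKM. Some genes are not reported here and were left out of the lists. Other genes named outside it, namely PRPSAP2, DCK, MAT2A, NT5M, ABCC5, SLC28A2, MLH3, NME2, POLD1, LIG1, the untested genes, the single marker genes, the overlapping genes FBXO11 and CNNM2, and MSH4 and MSH5, were chosen after their values were seen.

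The alternatives were to use 0.1 as the pseudocount, to keep low genes, to block on the replicate number, to rescale the libraries in 2 ways, to run limma without trend and robust estimation, and to leave out each library. The block for the ratios was added after the data were seen.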

Additional observations from a re-analysis of the deposited data

How the results depend on the processing

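The calls of 4 genes as lower and 2 as higher among the 7 held under a pseudocount of 0.1, without a filter on low values, with libraries brought to a common total of 1e+06 FPKM, in limma without trend and robust estimation, and without any 1 library. With each library divided by its median ratio, NT5C2 was also higher (log2 fold change 0.25, limma adjusted p = 0.000282), so that 3 of the 7 were. On that scale the pathway genes called higher numbered 12 instead of 7, because all 5 that had not passed became higher, and 51 instead of 54 were lower, without DCK, ABCC5 and MLH3. Without a filter on low values 11 pathway genes were higher, since more genes were tested. In the list of thiopurine inactivation 1 gene was higher, against 3 without the filter. The added genes were among XDH, AOX1, MOCOS and GDA, whose means were at most 0.313 FPKM in either group. Leaving out 1 library kept between 60 and 61 of the 61 pathway calls, and the 1 lost was MLH3.

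With the replicate number as a block, 4 of the 7 genes were lower and 2 higher, and the pathway lists had 54 lower and 7 higher. Same-numbered libraries did not deviate together (r of −0.119, 0.014 and −0.016 across 12239 genes), so the numbers were not taken as pairs. For the ratios, a pseudocount of 0.1, this block and leaving out each library kept the direction of all 6, and none of these exact tests can pass 0.05. FPKM without counts leave the precision of low genes, such as TPMT with DMSO, to the spread between libraries.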

Other observations

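The MutS homologs MSH4 and MSH5, which act on meiotic crossovers and not in mismatch repair, rose with SNS-032 while MSH6 and MSH3 fell. They were chosen after their values were seen. MSH5 was at 25.09, 25.46 and 25.91 FPKM with DMSO and at 57.02, 55.68 and 54.24 FPKM with SNS-032, with a log2 fold change of 1.10 (standard error 0.045, adjusted p = 3.17e-10 from limma). MSH5 may share reads with the readthrough gene MSH5-SAPCD1, which the annotation lists. MSH4 was at 0.26, 0.11 and 0.18 FPKM with DMSO and at 5.2, 7.47 and 6.31 FPKM with SNS-032, with a log2 fold change of 2.62 (standard error 0.110, adjusted p = 3.99e-10 from limma). It passed the limit of 1 FPKM only through its level with SNS-032. Among all genes tested, 39.9% were called higher.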
